A study of Mus musculus with 8 samples.

Results

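The CXCR3 chemokine axis was followed in mouse liver tumors through 6 genes chosen by name: the ligand genes Cxcl9, Cxcl10 and Cxcl11, the receptor gene Cxcr3, the scavenger receptor gene Ackr3 and the protease gene Dpp4. All 6 were found among the 36670 genes of the authors' normalized table and among the 55536 counted genes, and all 6 passed the filter on low counts that left 15998 genes for testing. The tumors were grown from HCA-1, a mouse hepatocellular carcinoma (HCC) line, implanted in the liver of male C3H mice that the labels give as 6 to 8 weeks old. On day 17 after implantation the mice received, intravenously, either saline or a single dose of PFSUV-IMQ, which is imiquimod, a TLR7 agonist, carried in phospholipid-free small unilamellar vesicles. Tumors were taken 3 h later from 4 mice of each group, labelled Control 1, 3, 4 and 5 and IMQNP 1, 2, 3 and 4, and whole-tumor RNA was sequenced. The controls carried the same tumor, and since tumors given empty vesicles or free imiquimod were not analysed here, drug and carrier cannot be told apart. HCA-1 is 1 line, and each tumor also holds host cells.

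CXCL9, CXCL10 and CXCL11 are small secreted chemokines whose genes are induced by interferons. They share the receptor CXCR3, a G protein-coupled receptor of activated T cells, NK cells and some dendritic cells, and draw those cells into inflamed tissue. ACKR3 binds CXCL11 and CXCL12 and takes them up without classical G protein signalling. DPP4, also known as CD26, is a membrane peptidase that trims the amino end of these ligands, and the trimmed forms signal poorly through CXCR3.

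Each library held 16883911 to 27687756 counts in the saline group and 17008151 to 18527613 in the PFSUV-IMQ group. Levels are given in CPM (counts per total after normalization between libraries). Taken over library totals before that normalization, 3 counts corresponded to 0.108 to 0.178 CPM, a limit that covers counting error only. Normalization lowered the total of PFSUV-IMQ replicate 2 from 17008151 to 14313922, so its limit is higher on the scale of the levels. Between tumors of the same group the Pearson correlation across genes ran from 0.912 to 0.984, and no batch is named in the labels. The hepatocyte markers Alb, Apoa1, Ttr, Cyp2e1 and Cps1 were abundant in every tumor and uneven, summing to 4225 to 31927 CPM after saline and 5968 to 32218 CPM after PFSUV-IMQ. The library of PFSUV-IMQ replicate 2 stood apart, with the highest value of its group in 320 of the 362 genes called higher, and values without it are given below for each of the 6 genes.

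The 3 ligand genes lie side by side on the minus strand of chromosome 5 in the GENCODE M21 annotation of GRCm38. Cxcl9 is at chr5:92321347-92328079, Cxcl10 at chr5:92346638-92348889 and Cxcl11 at chr5:92359544-92365485. The annotation types Cxcl11 as a polymorphic pseudogene, since the reference strain C57BL/6 carries a frameshift in it. Cxcr3 is at chrX:101731535-101734269 and Dpp4 at chr2:62330073-62412231, both on the minus strand, and Ackr3 is at chr1:90203980-90216751 on the plus strand. The 250 bases before the start of Cxcl10, Cxcl9 and Dpp4 are shown to set beside each other 2 ligand genes that rose and 1 gene that did not pass the test. They are read 5′ to 3′ on the minus strand from the RefSeq promoters of GRCm38.p6, at chr5:92348890-92349139, chr5:92328080-92328329 and chr2:62412232-62412481. Capitals mark matches on either strand to the interferon-stimulated response element core (ISRE, written as GAAA, any 2 bases, GAAA) or to the kappaB motif. The kappaB motif was written as GGG, A or G, any 2 bases, C or T, C or T, CC. Only exact matches were counted, so sites that depart from these patterns are not marked.
Cxcl10: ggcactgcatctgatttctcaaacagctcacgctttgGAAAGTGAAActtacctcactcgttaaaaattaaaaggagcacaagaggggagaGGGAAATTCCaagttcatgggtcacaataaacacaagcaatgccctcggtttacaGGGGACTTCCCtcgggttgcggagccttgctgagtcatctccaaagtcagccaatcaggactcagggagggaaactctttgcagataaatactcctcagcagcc
Cxcl9: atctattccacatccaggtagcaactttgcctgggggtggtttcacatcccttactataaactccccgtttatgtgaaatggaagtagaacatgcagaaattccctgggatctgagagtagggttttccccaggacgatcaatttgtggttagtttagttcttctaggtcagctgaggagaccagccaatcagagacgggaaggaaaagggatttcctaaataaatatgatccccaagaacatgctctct
Dpp4: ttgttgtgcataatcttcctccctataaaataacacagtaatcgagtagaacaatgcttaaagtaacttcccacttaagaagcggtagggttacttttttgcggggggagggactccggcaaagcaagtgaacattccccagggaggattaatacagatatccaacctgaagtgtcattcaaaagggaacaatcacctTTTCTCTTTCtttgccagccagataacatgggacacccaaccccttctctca
Cxcl10 held 1 ISRE core, 213 to 204 bases before its start, and 3 kappaB matches, 1 at 159 to 150 bases and an overlapping pair that ends 94 bases before the start. Dpp4 held 1 ISRE core on the opposite strand, 52 to 43 bases before its start. Cxcl9, Cxcr3 and Ackr3 held no match to either motif, nor to the gamma-activated site (GAS, written as TTC, any 3 bases, GAA), in windows of 300 bases that included 50 bases after the start. Of 32851 RefSeq promoter windows of that length, 3.44% held the ISRE core, 8.46% the kappaB motif and 8.30% the GAS, and 5 of the 6 genes had an entry. The mice were C3H and the reference is C57BL/6J, so bases may differ between them.

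All 3 ligand genes rose after PFSUV-IMQ, Cxcl10 the most in fold, and neither the receptor nor the scavenger nor the protease gene passed the test. Calls required an adjusted p below 0.05 in the quasi-likelihood test of edgeR, with Benjamini-Hochberg adjustment over all tested genes, and a log2 fold change of more than 1 in either direction. By that rule 3 of the 6 genes were called higher, against 2.26% of all tested genes, and 0 were called lower, against 0.200%. The 3 genes that were not called had unadjusted p values of 0.0472 for Cxcr3, 0.00203 for Ackr3 and 0.514 for Dpp4 in the same test, of which 2 were under 0.05, as were those of 13.0% of all tested genes. In 4 of the 6 genes all treated tumors exceeded all saline tumors, against 6.00% of all tested genes, and in 0 of the 6 they all fell short of them, against 3.28%. In bulk tumors, fewer cells of a type and less RNA per cell cannot be told apart.

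**Figure D1:**
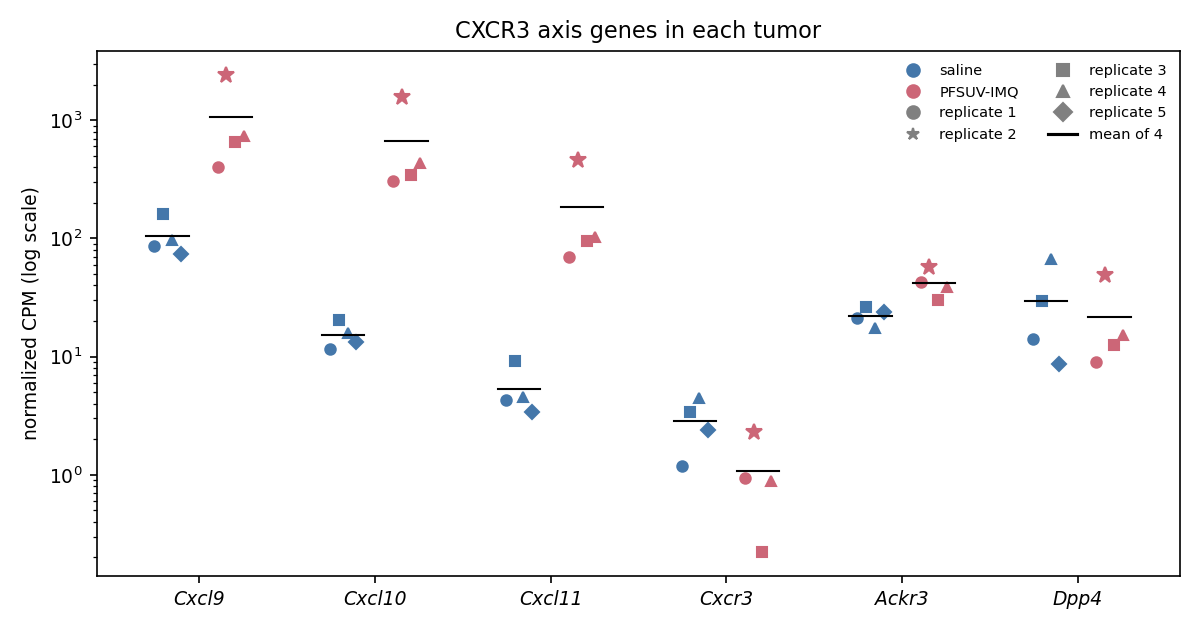
Normalized CPM (log scale) of the 6 genes in each of the 8 tumors, with the mean of 4 as a bar and the replicate number as the symbol. The groups lie apart for the 3 ligands and Ackr3 and overlap for Cxcr3 and Dpp4, and PFSUV-IMQ replicate 2 is the highest of its group in every gene.

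Cxcl10 was the ligand with the steepest rise. It measured 11.7, 20.4, 15.8 and 13.4 CPM in saline replicates 1, 3, 4 and 5, and 304, 1576, 343 and 431 CPM in PFSUV-IMQ replicates 1 to 4. The lowest treated tumor was far above the highest saline tumor, and PFSUV-IMQ replicate 2 stood well above the other treated tumors. The group means were 15.3 ± 3.78 and 664 ± 611 CPM (SD, n = 4 each). The log2 fold change was 5.43 with a standard error of 0.62 and a 95% interval of 4.05 to 6.81 (edgeR, adjusted p = 0.00209), which is 43.3-fold. It ranked 9 among all tested genes by log2 fold change. Without PFSUV-IMQ replicate 2 the log2 fold change was 4.53 and still called.

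Cxcl11 followed Cxcl10 closely in fold at a lower level. It measured 4.33, 9.10, 4.55 and 3.42 CPM after saline, and 69.5, 463, 95.9 and 104 CPM after PFSUV-IMQ, in the same order of replicates. Again the groups were well separated, saline replicate 3 was the highest control and PFSUV-IMQ replicate 2 the highest treated tumor. The means were 5.35 ± 2.55 and 183 ± 187 CPM (SD, n = 4 each). The log2 fold change was 5.09 with a standard error of 0.71 and a 95% interval of 3.51 to 6.67 (edgeR, adjusted p = 0.00516), which is 34.0-fold. Without PFSUV-IMQ replicate 2 it was 4.04 and still called. The processed pseudogene Gm2673 on the opposite strand covers 1582 of the 3794 exon bases of Cxcl11 (41.7%). The share of its 50-base words found in another gene on either strand, 40.9%, counts that same overlap. Gm2673 had 0 counts in all 8 tumors. Whether reads were counted by strand is not given in the sources used here, so the level of Cxcl11 may be understated by reads that could belong to either gene.

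Cxcl9 was the most abundant ligand before treatment and rose least in fold. It measured 86.6, 162, 97.2 and 74.3 CPM after saline, and 401, 2433, 658 and 729 CPM after PFSUV-IMQ. The groups did not overlap, with saline replicate 3 highest among the controls and PFSUV-IMQ replicate 2 highest among the treated tumors. The means were 105 ± 39.1 and 1055 ± 929 CPM (SD, n = 4 each). The log2 fold change was 3.33 with a standard error of 0.57 and a 95% interval of 2.04 to 4.62 (edgeR, adjusted p = 0.0153), which is 10.0-fold. Without PFSUV-IMQ replicate 2 it was 2.49 and still called, whereas the call was lost without saline replicate 1 (log2 fold change 3.24, adjusted p = 0.0706) and without saline replicate 4 (3.29, adjusted p = 0.0528).

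The balance among the ligands shifted from Cxcl9 towards Cxcl10 and Cxcl11. Per kb of annotated exon, Cxcl9 made up 78.2 to 82.4% of the summed ligand level after saline and 46.4 to 55.2% after PFSUV-IMQ. Cxcl10 went from 13.9 to 18.9% up to 38.5 to 47.2%, and Cxcl11 from 2.86 to 3.68% up to 5.94 to 7.50%. The length of Cxcl11 includes the 1582 exon bases that Gm2673 covers, so its share may be understated and those of the others overstated. For each ligand the shares of the groups did not overlap, and PFSUV-IMQ replicate 2, the tumor with the highest ligand levels, had shares of Cxcl9 and Cxcl10 inside the range of the other treated tumors and the highest share of Cxcl11.

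**Figure D2:**
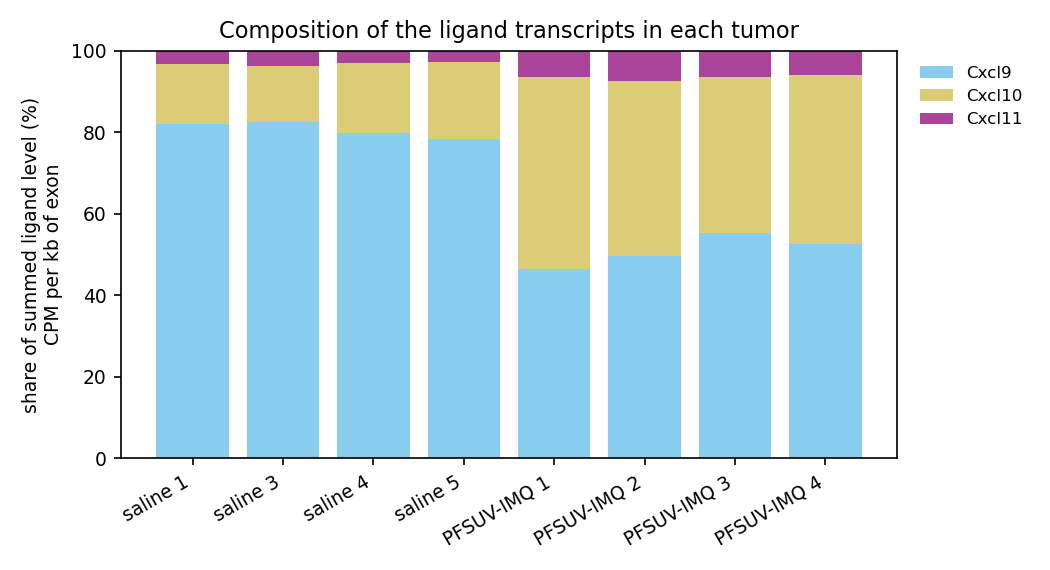
Share of each ligand in the summed ligand level of a tumor (percent, from CPM per kb of exon), 1 bar per tumor. Cxcl9 takes at least 78.2% of every saline bar and at most 55.2% of every PFSUV-IMQ bar.

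The ratio of Cxcl10 to Cxcl9 within a tumor was 2.02 higher on the log2 scale after PFSUV-IMQ (4.06-fold), from -2.70 ± 0.24 to -0.68 ± 0.23 (SD, n = 4 each, CPM with a pseudocount of 0.5). The ratio of Cxcl11 to Cxcl9 was 1.57 higher, from -4.20 ± 0.09 to -2.62 ± 0.20. Both had p = 0.0286 in a two-sided exact permutation test, the smallest that 4 tumors against 4 can give, and an adjusted p of 0.0429 over the 3 ligand pairs. The ratio of Cxcl10 to Cxcl11 differed by 0.45 (exact permutation p = 0.0571), and its groups overlapped. These 3 pairs were chosen after their values were seen. With a tumor left out in turn, the difference for Cxcl10 to Cxcl9 ran from 1.93 to 2.11 and that for Cxcl11 to Cxcl9 from 1.50 to 1.63.

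Cxcr3, the shared receptor, was scarce and not called. It had 26, 96, 103 and 44 counts after saline and 17, 33, 4 and 16 after PFSUV-IMQ, which is 1.20, 3.37, 4.42 and 2.39 CPM against 0.938, 2.31, 0.223 and 0.882 CPM. Replicates 1, 3 and 4 of the treated group lay below the lowest saline tumor, but PFSUV-IMQ replicate 2 lay above saline replicate 1, so the groups overlapped. The means were 2.85 ± 1.38 and 1.09 ± 0.875 CPM (SD, n = 4 each). The log2 fold change was -1.41 with a standard error of 0.62 and a 95% interval of -2.79 to -0.02 (edgeR, adjusted p = 0.373). Without PFSUV-IMQ replicate 2 the log2 fold change was -2.07 (adjusted p = 0.137 from edgeR).

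The marker lists of the cells that carry CXCR3 are given beside it, with that of macrophages and monocytes. Their part in the Cxcr3 values was not tested. The 7 T cell markers summed to 56.5 to 135 CPM after saline and 64.3 to 163 CPM after PFSUV-IMQ, and 0 of 7 were called in either direction. The 5 NK cell markers summed to 14.9 to 75.3 and 34.0 to 100 CPM, with 0 of the 4 tested called. Of those 4, 2 had a positive and 2 a negative log2 fold change. Klrb1c, which was not tested, had at most 7 counts in any tumor and was at 0 in 3 of the PFSUV-IMQ tumors. The 5 dendritic cell markers summed to 25.6 to 53.8 and 22.1 to 37.8 CPM, with 0 called and a median log2 fold change of -0.84. The macrophage and monocyte markers summed to 316 to 516 and 175 to 353 CPM, also with 0 of 7 called. Their median log2 fold change was -0.42, with 6 negative and 1 positive. The positive one was Ly6c2 (1.88), in which all treated tumors exceeded all saline tumors. The 4 type 1 lymphocyte markers, Tbx21, Ifng, Gzmb and Ccl5, summed to 24.0 to 51.6 and 43.6 to 201 CPM. With 0 of them called, their median log2 fold change was 0.82. The 201 CPM belonged to PFSUV-IMQ replicate 2, against 49.9, 43.6 and 52.3 CPM in replicates 1, 3 and 4. That tumor also had the highest treated sums of the T cell, NK cell and dendritic cell lists. In Gzmb, a granzyme of cytotoxic cells, all treated tumors exceeded all saline tumors (log2 fold change 2.12, adjusted p = 0.0985 from edgeR). In each of these lists the sums of the groups overlapped. Over all tested genes 2.26% were called higher and 0.200% lower.

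Ackr3, the scavenger of CXCL11 and CXCL12, was higher in all treated tumors than in all saline tumors, and did not pass the adjusted threshold. It measured 21.1, 26.1, 17.4 and 23.8 CPM after saline and 42.8, 57.1, 30.1 and 38.6 CPM after PFSUV-IMQ. The lowest treated tumor, replicate 3, lay just above the highest saline tumor, also replicate 3. The means were 22.1 ± 3.72 and 42.1 ± 11.3 CPM (SD, n = 4 each). The log2 fold change was 0.93 with a standard error of 0.22 and a 95% interval of 0.43 to 1.43 (edgeR, adjusted p = 0.0652), which is 1.90-fold. The Wald test of DESeq2 gave an adjusted p of 0.0154 at 0.93, which is under the fold limit. Leaving out PFSUV-IMQ replicate 2 gave a log2 fold change of 0.73 (edgeR, adjusted p = 0.123).

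Dpp4, the ligand-trimming peptidase, varied more within the groups than between them. It measured 14.1, 29.3, 66.6 and 8.58 CPM after saline and 9.05, 49.2, 12.4 and 15.4 CPM after PFSUV-IMQ. The groups overlapped over most of their range, and the highest tumors were saline replicate 4 and PFSUV-IMQ replicate 2. The means were 29.7 ± 26.2 and 21.5 ± 18.6 CPM (SD, n = 4 each). The log2 fold change was -0.47 with a standard error of 0.69 and a 95% interval of -2.02 to 1.08 (edgeR, adjusted p = 0.859). The interval allows a change of either sign of more than 2-fold. Without saline replicate 4 the value turned to 0.30, and without PFSUV-IMQ replicate 2 it was -1.28, both not called.

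The spread of Dpp4 ran alongside that of hepatocyte genes. The summed hepatocyte markers were also highest in saline replicate 4 (31927 CPM) and PFSUV-IMQ replicate 2 (32218 CPM) and lowest in saline replicate 5 (4225 CPM), and with group means taken out, Dpp4 and Alb had a Pearson r of 0.976 over the 8 tumors, whose values share library and tumor composition. The part of hepatocyte content in the Dpp4 values was not tested. An antisense gene, Gm13561, covers 232 exon bases of Dpp4 (3.67%).

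**Figure D3:**
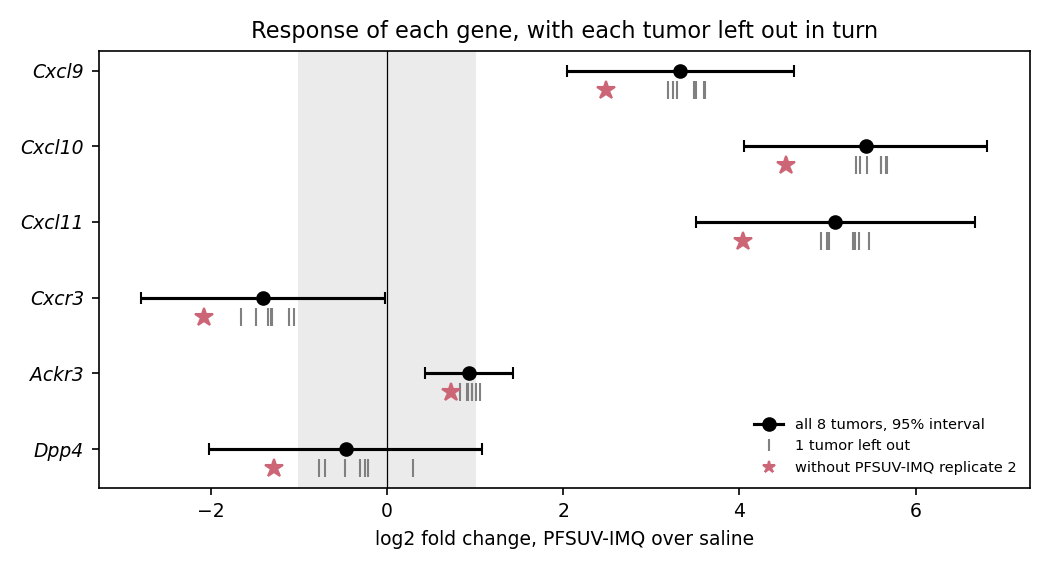
Log2 fold change of the 6 genes, PFSUV-IMQ over saline, with the 95% interval from all 8 tumors (black) and the values with 1 tumor left out in turn (grey bars, red star for PFSUV-IMQ replicate 2). The shaded band marks log2 fold changes within 1 of 0, and the star lies lowest in every row.

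The order of the 6 genes changed with treatment when levels were set per kb of exon. After saline Cxcl9 stood alone at 34.8 CPM per kb, and Cxcl10 (6.80), Ackr3 (6.60), Dpp4 (4.69), Cxcr3 (1.64) and Cxcl11 (1.41) followed, each overlapping the next in its range. After PFSUV-IMQ the order was Cxcl9 at 350 ± 308 CPM per kb (SD, n = 4), Cxcl10 at 295 ± 271, Cxcl11 at 48.3 ± 49.4, Ackr3 at 12.6, Dpp4 at 3.40 and Cxcr3 at 0.628. Cxcl9 and Cxcl10 then overlapped, with Cxcl10 the higher in replicate 1 alone, and each later neighbour lay below the one before it in 4 of 4 tumors, with no overlap. The treated means without PFSUV-IMQ replicate 2, a choice made after seeing the data, were 198 ± 57.1 CPM per kb for Cxcl9, 160 ± 28.8 for Cxcl10 and 23.6 ± 4.73 for Cxcl11 (SD, n = 3), with Ackr3 at 11.1, Dpp4 at 1.94 and Cxcr3 at 0.393. Taken over the 2212 exon bases of Cxcl11 that Gm2673 does not cover, a choice made after seeing the data, Cxcl11 would stand at 2.42 CPM per kb after saline and 82.8 after PFSUV-IMQ, which places it above Cxcr3 after saline.

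The distance between ligand and receptor transcripts widened after treatment. The 3 ligands together stood at 50.7, 33.4, 15.8 and 22.8 times the level of Cxcr3 per kb in saline replicates 1, 3, 4 and 5. In PFSUV-IMQ replicates 1 to 4 the ratio was 529, 1223, 3071 and 903. The highest ratio belonged to replicate 3, in which Cxcr3 had 4 counts, so its size is imprecise. Cxcl10 stood at 0.824 to 1.34 times the level of Ackr3 per kb after saline and at 10.6 to 41.0 times after PFSUV-IMQ.

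Each ligand was compared with each of the 3 other genes by the log2 ratio of CPM within a tumor, with a pseudocount of 0.5 CPM. All 9 ratios were higher in every PFSUV-IMQ tumor than in every saline tumor. Each had p = 0.0286 in a two-sided exact permutation test, the smallest the design allows, and 0.0286 after adjustment over the 9 pairs. Each ligand alone already separated the groups, and the 9 ratios share 3 ligands and 3 other genes, so they are not independent. Ratios to genes outside the members were not computed, so whether the same holds for other genes was not tested. Over Cxcr3 the differences between the group means were 4.17 for Cxcl9, 6.19 for Cxcl10 and 5.74 for Cxcl11 on the log2 scale. Over Dpp4 they were 3.40, 5.42 and 4.97, and over Ackr3, whose own fold change was positive, 2.14, 4.17 and 3.72. The differences over Ackr3 were 1.78, 3.79 and 3.28 without PFSUV-IMQ replicate 2. The ratios of ligands to Dpp4 were nearly equal among treated tumors, with 5.55 ± 0.12 for Cxcl9, 4.87 ± 0.14 for Cxcl10 and 2.93 ± 0.21 for Cxcl11 (SD, n = 4), against 2.15 ± 1.10, -0.55 ± 1.11 and -2.04 ± 1.14 among saline tumors.

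**Figure D4:**
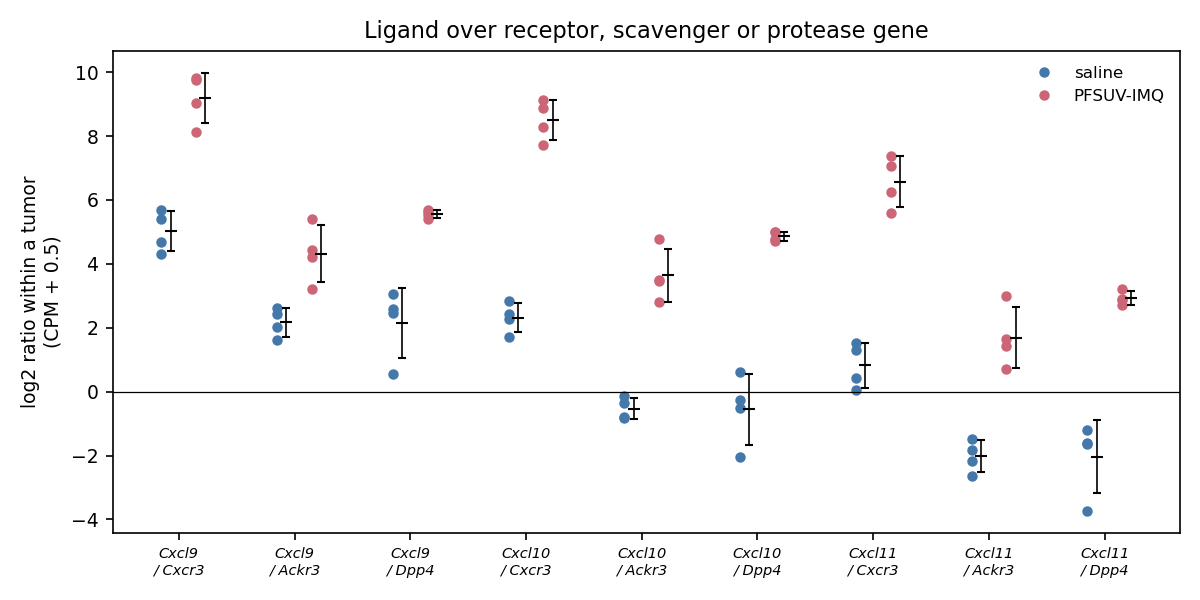
Log2 ratio within each tumor (CPM with 0.5 added) of each ligand to Cxcr3, Ackr3 or Dpp4, with points for the 4 tumors of a group and bars for mean ± SD. The groups lie apart in all 9 pairs, and the treated points bunch most tightly for the ratios to Dpp4.

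Among the genes that induce the ligands, part of the interferon signalling chain rose with them. Of 21 genes listed, 20 were tested, 5 were called higher and 0 lower, against 2.26% and 0.200% of all tested genes. The median log2 fold change was 0.56 against -0.03 over all tested genes. Those called included Stat2 (log2 fold change 2.34, adjusted p = 0.000499 from edgeR), which carries the signal of interferon receptors, and Irf9 (1.26, adjusted p = 0.0087), its partner on the ISRE. They also included Irf7 (2.94, adjusted p = 0.00121), which drives type I interferon genes, and Myd88 (1.24, adjusted p = 0.0287), the adaptor of TLR7. The call of Myd88 was lost in 5 of the 8 fits that left out a tumor, those without any 1 of the saline tumors and without PFSUV-IMQ replicate 2, and under the replicate block. Of the list, 4 genes were called without PFSUV-IMQ replicate 2, and without saline replicate 1 or 4 3 genes, Stat2, Irf7 and Irf9, were called. Ifng, which encodes interferon gamma, had a log2 fold change of 0.62 (adjusted p = 0.629 from edgeR). Ifnb1 had at most 4 counts after saline and 7 after PFSUV-IMQ and was not tested.

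Among the genes of receptor signalling and ligand clearance, edgeR called Fap, and the Wald test of DESeq2 called Fap and Ackr1. In edgeR 2.26% of all tested genes were called higher and 0.200% lower. Of 13 genes of signalling below the receptor, 0 were called, with a median log2 fold change of -0.19, and the largest values were -0.78 for Pik3cg (adjusted p = 0.375 from edgeR), a phosphoinositide kinase subunit of leukocytes, and -0.47 for Arrb2 (adjusted p = 0.316), an arrestin. Of 13 other scavengers and ligand-processing enzymes, 12 were tested and 1 was called. That gene was Fap, a membrane peptidase related to Dpp4 that marks activated fibroblasts, which rose from a mean of 1.34 CPM (SD 0.54) to one of 8.17 CPM (SD 3.61, n = 4 each). Its log2 fold change was 2.60 with a standard error of 0.43 (edgeR, adjusted p = 0.0129). Its call was lost without saline replicate 3. The 5 fibroblast and pericyte markers summed to 1735 to 2590 CPM after saline and 2329 to 6275 CPM after PFSUV-IMQ, with 0 of 5 called, and their part in the Fap values was not tested. Ackr1, another scavenger, had a log2 fold change of 1.88 (adjusted p = 0.14 from edgeR and 0.0138 from DESeq2).

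Other chemokines that share a receptor or a family with the 3 ligands were not called in edgeR. There 2.26% of all tested genes were called higher and 0.200% lower. Pf4, a platelet chemokine that can bind CXCR3, had a log2 fold change of -0.01 (adjusted p = 0.993 from edgeR), Ccl21c had 0 counts, and Ccl21a and Ccl21b could not be matched to 1 identifier each. Cxcl12, which binds both CXCR4 and ACKR3, had -0.59 (adjusted p = 0.802) and Adm, a peptide hormone that ACKR3 also binds, 0.84 (adjusted p = 0.537). Of 8 CXC chemokines outside the CXCR3 group tested in edgeR 0 were called, with a median log2 fold change of 0.84, and the Wald test of DESeq2 called 2 higher. Those 2 were the neutrophil attractants Cxcl1 and Cxcl2, at 1.37 and 1.16 on the log2 scale. Their adjusted p was 0.154 and 0.159 in edgeR against 0.0335 and 0.0497 in DESeq2, and the treated tumors all lay above the saline tumors for Cxcl2 but not for Cxcl1.

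No tested protein-coding neighbour of the ligand cluster was called. That count is near the share over all tested genes and does not show where the rise ends. Within 200 kb on either side of Cxcl10, 7 other protein-coding genes were tested and 0 were called, against 2.26% of all tested genes called higher and 0.200% lower. Non-coding genes there that overlap no member were not examined. Art3, an ADP-ribosyltransferase gene on the plus strand whose body spans Cxcl10 and Cxcl11, had the largest value, 1.38 (standard error 0.43, adjusted p = 0.165 from edgeR), from 8 to 35 counts per tumor after saline and 31 to 46 after PFSUV-IMQ. It shares 133 exon bases with Cxcl10 (5.91%), and reads there could have been counted for either gene if strand was not used. Sdad1 and Naaa, the neighbours on the side of Cxcl9, had 0.06 and -0.46, and Nup54 and Scarb2, on the side of Cxcl11, had -0.06 and 0.40.

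**Figure D5:**
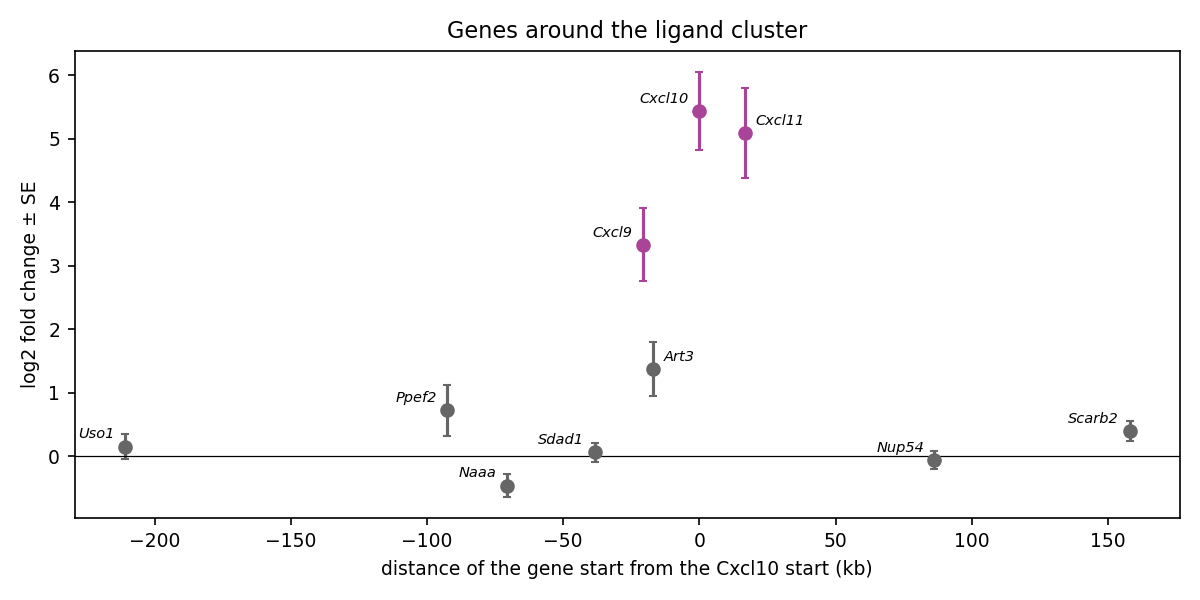
Log2 fold change ± standard error (PFSUV-IMQ over saline) of the 3 ligands and tested protein-coding genes around them, against the distance of their start from that of Cxcl10 in kb. The 3 ligands (purple) lie between 3.33 and 5.43 and the 7 neighbours (grey) between -0.46 and 1.38.

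The genes whose levels ran most like each member over the tumors were found by Pearson r on log2 CPM, as a description without a test. Over all 8 tumors, whose groups lie apart for the ligands, the closest genes were Gnb4, Peli1 and Cd47 for Cxcl9 (r of 0.995 to 0.996), Dhx58, Ifi214 and Phf11b for Cxcl10 (0.997 to 0.998) and Trim30d, Phf11b and Zbp1 for Cxcl11 (0.997 to 0.998). For Ackr3 they were Rnf19b, Nos2 and Gm9869 (0.965 to 0.967), for Cxcr3 Btnl2, Kcnk6 and Btla (0.940 to 0.959), and for Dpp4 Aox3, Cyp4f15 and Slc2a2 (0.994 to 0.997). Aox3, Cyp4f15 and Slc2a2 encode an aldehyde oxidase, a cytochrome P450 and the glucose transporter of hepatocytes. With group means taken out, the closest were Trim30d, Cxcl11 and Pglyrp1 for Cxcl9, Rnd1, Dusp28 and Phf11b for Cxcl10, and Cxcl9, Socs1 and AA467197 for Cxcl11. They were Hoxa5, Lrmda and Rfc5 for Cxcr3, Ccl3, Tent5c and Pdk3 for Ackr3, and Fmo1, Aox3 and Atp7b for Dpp4.

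The ligands stayed close to each other within groups, and less so to the other members. With group means taken out, Cxcl9 and Cxcl11 had r = 0.990 over the 8 tumors and 0.963 over the 7 tumors without PFSUV-IMQ replicate 2. Cxcl9 and Cxcl10 had 0.962 and 0.875, and Cxcl10 and Cxcl11 had 0.965 and 0.848. Between the 3 ligands and Ackr3 the values were 0.599 to 0.698 over 8 tumors and 0.00163 to 0.184 without that tumor, so that they rested on it. Between the ligands and Cxcr3 they were 0.574 to 0.732 and then 0.0719 to 0.511. Between the ligands and Dpp4 they were 0.715 to 0.735 and then 0.475 to 0.581. Values of 1 tumor share library depth and cell makeup.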

How the data were processed

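Whole-tumor RNA of 8 mice was sequenced. The authors deposited whole-number counts of reads per gene without normalization, and these were the input of every test. The authors also deposited signal values made by DESeq2, in which each tumor's counts are divided by a size factor of its own (largest relative departure 5.4e-10), used only to find gene symbols. The paper's methods name TopHat and HTSeq, whereas the submitters' processing notes list Trimmomatic 0.38, HISAT2 2.1.0 and featureCounts 2.0.0, and the genome build is not given in the sources used here. All 55536 counted identifiers are in GENCODE M21 (GRCm38), from which exon lengths and coordinates were taken.

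Counts were fitted in R 4.3.3 with edgeR 4.0.16 (TMM normalization, default filter on low counts, quasi-likelihood test, Benjamini-Hochberg adjustment over 15998 genes), saline and PFSUV-IMQ tumors as labelled, with no covariate. Correlations used log2 CPM with a prior count of 2. Ratios were compared in Python 3.11.15 by exact permutation over the 70 groupings. Alternatives were DESeq2 1.42.0 (size factors or Wald test), no filter, no fold limit, longest transcript length, pseudocounts, a replicate block and each tumor left out. The fits were tested on simulated data. Named genes are the 6 members, called genes of each list or else its largest changes, protein-coding or overlapping neighbours within 200 kb, and the 3 genes most like each member. Ifng, Ifnb1 and the marker genes were named outside that rule, after their values were seen. Members and lists were chosen with earlier results of these data known. Further marker lists (B cell, neutrophil, endothelial, cholangiocyte, HCC and oncofetal) had 0 genes called. A called gene of the ligand induction list is not reported here. No batch is given in the labels.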

Additional observations from a re-analysis of the deposited data

Results flagged for a closer look

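In 4 of the 6 genes PFSUV-IMQ replicate 2 was far above the remaining treated tumors. Its gap in CPM to the nearest of them, relative to the range of the group, was beyond Dixon's 95% critical value. It had 2433 CPM of Cxcl9 (gap 0.839 of the range), 1576 CPM of Cxcl10 (0.900), 463 CPM of Cxcl11 (0.913) and 49.2 CPM of Dpp4 (0.842). In all, 12 groups of 4 values were examined, and chance flags about 1 group in 20 if values are normally distributed. On log2 CPM each of the 4 gaps takes a smaller share of the range and lies under that critical value. The 4 values come from 1 library, so they are not independent of each other.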

How the results depend on the processing

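Cxcl10 and Cxcl11 were called higher in every alternative fit, and Cxcl9 in all but 2. Its log2 fold change ranged from 2.49 to 3.61 with a tumor left out, and its call was lost without saline replicate 1 (3.24) and without saline replicate 4 (3.29), so that 2 to 3 members were called. Dpp4 ranged from -1.28 to 0.30 and turned positive without saline replicate 4 (0.30). Of the alternatives in the number of genes called higher, the Wald test of DESeq2 gave 619, and leaving out a tumor gave 197 to 375. Genes called lower numbered 63 without the filter on low counts, 133 by the Wald test of DESeq2 and 8 to 38 with a tumor left out. The cause of these shifts was not tested. Both groups have tumors numbered 1, 3 and 4, from separate mice. Deviations of same-numbered tumors from their group means had Pearson r of 0.294, -0.268 and -0.316. Those of differently numbered tumors ran from -0.6365 to 0.6828. These values cannot show whether the numbers mark shared handling, and the main fit did not pair tumors. With the number as a replicate block, 416 genes were called higher and 267 lower. Numbers 5 and 2 each occur in 1 group only, so saline replicate 5 and PFSUV-IMQ replicate 2 added nothing to its fold changes. The block fit thus compares replicates 1, 3 and 4 of each group. Under the block the log2 fold changes were 2.38 for Cxcl9, 4.51 for Cxcl10 and 3.96 for Cxcl11, all called, with -2.07 for Cxcr3, 0.79 for Ackr3 and -1.34 for Dpp4, not called. All 9 ratios kept their direction with pseudocounts of 0.1 and 2 CPM and, given as values with no test, with any tumor left out. Depth limits Cxcr3 most, with 4 counts in 1 tumor.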
